A study of Danio rerio with 24 samples.

Results

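The proteasome subunit genes of the zebrafish were followed in ovaries of adult females that had met the herbicide atrazine only as embryos. Members were all array targets that carry the RefSeq transcript of a gene named psma, psmb, psmc, psmd or psme and a digit. These letters fitted 53 targets, of 72756 targets measured and 89208 on the array. Of the 53, 51 encode a ring subunit, a regulatory subunit, an activator or an assembly chaperone of the proteasome, and they are called members here. They fall into 42 constitutive and 9 immune or related members. The other 2, psmc3ip and psme3ip1, share the letters but encode no subunit and are given apart. A further gene of the same letters, psme4a, had no target. All 53 passed the filter on dim probes, and 169 probes stand behind the 51 members.

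Ovarian RNA was hybridized to one-color arrays, 6 for each of 4 treatments, 24 in all. The females, of the wild-type AB strain, had been kept as embryos, over the interval of 1 to 72 hours after fertilization, in water with atrazine at 0, 0.3, 3 and 30 ppb. The labels give an age of 5 to 6 months. The exposure thus ended long before the ovary was sampled, and the whole organ was extracted, so that fewer cells of a type and less RNA per cell cannot be told apart. Replicate numbers stand for groups of fish started on different days, and each number has a slide of its own with 1 array of every treatment. Each treatment always held one place on its slide, so place and treatment cannot be told apart.

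The proteasome is the large protease of the cytosol and nucleus that degrades proteins tagged with ubiquitin. Its 20S core is a barrel of outer alpha rings, which control entry, and inner beta rings, which hold the cutting sites. A 19S cap binds the ubiquitin chain, removes it, unfolds the substrate with a ring of ATPases and feeds it into the core. In immune cells and after interferon, the cutting subunits psmb5, psmb6 and psmb7 are replaced by psmb8, psmb9 and psmb10, and the cap can be replaced by the PA28 activator made of psme1 and psme2, which changes the peptides offered on class I molecules. In fish and amphibian ovaries the proteasome is known for its work in oocyte maturation and egg activation, when cyclins and other maternal proteins are removed.

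Replicate 1 was left out of all values below, because its spot signals matched those of the other slides only after the grid was moved (correlation 0.0141 to 0.0185 in place, 0.492 to 0.828 moved). On the other 20 arrays the 75th percentile of intensity lay between 417 and 2245, and 31.4% to 87.1% of probes were well above background. The lowest share belonged to the 3 ppb array of replicate 6. The correlation of levels with those at 0 ppb was 0.906 to 0.973 on 17 of the 20 arrays. It was 0.595 to 0.624 for replicates 3, 5 and 6 at 0.3 ppb. These 3 arrays go against their label. The median of their oocyte list (14 targets) was -9.01 to -8.07 on the log2 scale from the median 0 ppb array, with 13 or 14 of 14 targets still above background, and that of their brain list (14 targets) was 8.26 to 8.44. Values at 0.3 ppb are therefore given for these 3 arrays, for replicates 2 and 4, and for all 5 replicates.

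In 0 ppb ovaries most constitutive proteasome genes were bright and steady, and the immune members were less so. A level is the log2 intensity minus the 75th percentile of its array, so that a level above 0 is brighter than the 75th percentile of spots. The mean level was above 0 for 41 of the 42 constitutive members and for 4 of the 9 immune members, where 17.9% of all targets were. The exception among the constitutive members was psma6l, an alpha ring gene, at -0.50. All 51 members were well above background on each of the 5 arrays. Brightness depends on the probe as well as on the RNA, so these levels do not rank the genes.

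The median SD over the 5 ovaries at 0 ppb was 0.147 for constitutive members and 0.470 for immune members. It was 0.637 over all targets and 0.215 over the 12999 targets with a mean level above 0. Within the barrel, the 7 constitutive beta genes had a median SD of 0.0842 and the 10 alpha genes one of 0.128. The ATPases of the cap had a median SD of 0.124 (7 genes), its other subunits 0.175 (13 genes) and its 3 assembly chaperones 0.258.

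The steadiest member was psmb6, whose product carries the caspase-like cutting site, with levels of 4.68, 4.68, 4.74, 4.73 and 4.70 in replicates 2 to 6 (SD 0.0257). It rests on 1 probe. The next was psmb1, a beta subunit without a cutting site, with 3.98, 3.85, 3.90, 3.93 and 3.94 (SD 0.0477). The other cutting subunits were close behind, psmb5 (chymotrypsin-like) at 2.91 ± 0.08 and psmb7 (trypsin-like) at 4.19 ± 0.07 (SD, n = 5 each). At the other end stood psmb11b and psmb11a, relatives of the beta subunit that mammals use in the thymus. psmb11b read -7.31, -6.93 and -6.99 in replicates 2, 3 and 4, and -3.78 and -4.15 in replicates 5 and 6 (SD 1.72). psmb11a read -5.34, -5.25 and -5.56, and then -3.07 and -3.32 (SD 1.21). For both genes the high arrays are the 2 of the third scan session. The part of that session in the spread was not tested.

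**Figure D1:**
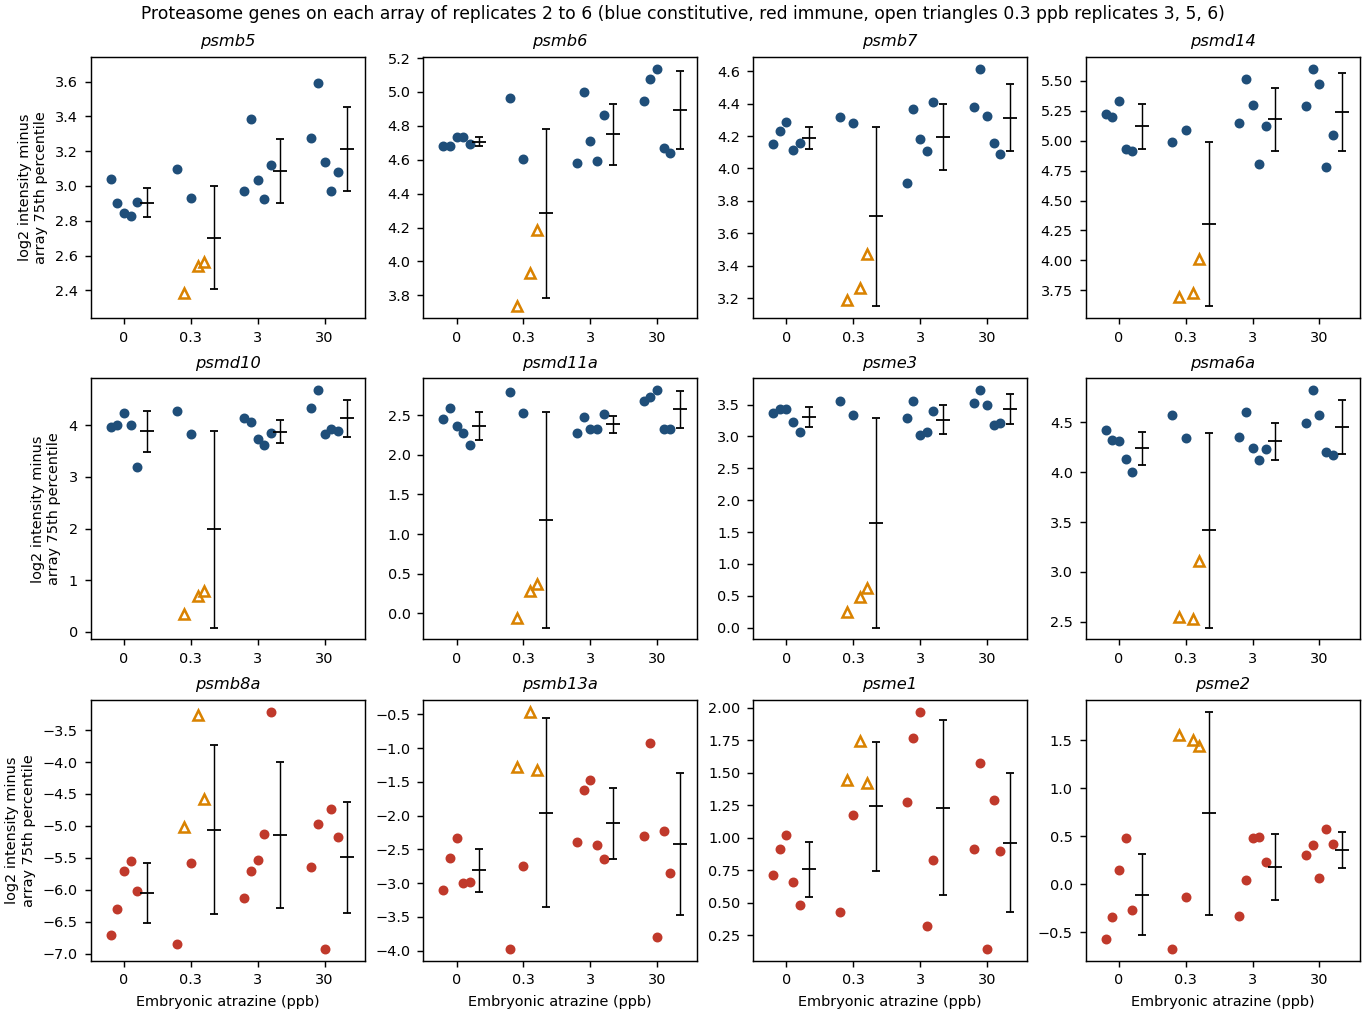
Levels of 12 proteasome genes (log2 intensity minus the 75th percentile of the array) on each array of replicates 2 to 6, in order of replicate within each dose (x axis, ppb atrazine). Bars give mean and SD of the 5 arrays. The open triangles are 0.3 ppb replicates 3, 5 and 6. On this scaling they lie below all other arrays for the 8 blue constitutive genes and above all 0 ppb arrays for the 4 red immune genes. Under quantile normalization their mean difference from the 0 ppb partners was 0.10 for psmb5 and 0.78 for psmb8a.

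At 3 ppb no proteasome gene passed the test against 0 ppb. By limma's test with the replicate as a block and Benjamini-Hochberg adjustment over all targets, 0 of 51 members passed an adjusted p of 0.05 with a change of at least 1.5-fold, as did 0% of the 72750 targets tested. At an unadjusted p below 0.05 with that fold, 0 members passed, where 5.54% of all targets did. Without the fold, 1 member passed (psmb11a), where 7.54% of all targets did. The unadjusted rule of the paper's methods (variance analysis over all 4 treatments with Tukey's test) passed 0 members and 0.148% of all targets. That rule, here and below, has no replicate block. It takes its spread from all 20 arrays, with the 3 at 0.3 ppb that go against their label among them. The fitted difference was above 0 for 43 members and below 0 for 8, where it was above 0 for 59.6% of all targets. The members' median was 0.10 on the log2 scale, against 0.07 over all targets. It was 0.09 for the constitutive and 0.29 for the immune members. Under normexp background correction the members' median fell below that of all targets (0.065 against 0.160). Quantile normalization put it above (0.075 against -0.012). In 5 of 5 pairs 5 members were higher (psma4, psmb8a, psmb13a, psmd12 and psme2, where 5.25% of all targets were) and 1 was lower (psmb11a, where 3.43% were). For 0 members the 5 arrays at 3 ppb stood clear of those at 0 ppb, as 0.639% of all targets did.

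The 3 members of smallest p at 3 ppb were all immune or related. psmb11a had a difference of -0.44 ± 0.20 (SE, limma, adjusted p = 0.662), with 5 of 5 pairs lower and with the sign turned to 0.08 under normexp background correction. Of the 5 arrays at 3 ppb, 2 measured it above background. psmb8a, the interferon-inducible partner of psmb5, read -6.12, -5.71, -5.54, -5.13 and -3.21 at 3 ppb, against -6.71, -6.30, -5.70, -5.54 and -6.02 at 0 ppb. All 5 pairs were higher, yet the groups overlapped, and the highest array was replicate 6, the array with the fewest probes above background. The fitted difference was 0.91 ± 0.45 (limma, adjusted p = 0.670), and 0.44 without replicate 6. psmb13a, a beta gene related to the immune subunits, was at 0.70 ± 0.40 (limma, adjusted p = 0.696) and was also higher in 5 of 5 pairs.

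The remaining immune members did not move together at 3 ppb. psmb9a, the counterpart of psmb6, was at 0.33 ± 0.26, and psmb10, the counterpart of psmb7, at -0.31 ± 0.22 (limma log2 difference ± SE, n = 5 pairs). The PA28 genes were at 0.48 ± 0.31 for psme1 and 0.29 ± 0.18 for psme2. psmb12, another related beta gene, was at 0.16 ± 0.40, and psmb11b at 0.14 ± 0.23. None of these passed the test. A list of 13 leucocyte targets lay 0.22 to 1.61 above the median 0 ppb array on the 5 arrays of the 3 ppb group, and -0.18 to 0.33 from it on the 0 ppb arrays. A list of 21 antigen presentation and interferon targets lay at 0.00 to 0.73 at 3 ppb and at -0.07 to 0.08 at 0 ppb. Of these targets 17 were above 0 and 4 below, where 59.6% of all targets were above 0. In this list 0 targets were called, as for 0% of all targets. On the 3 ppb array of replicate 6, which gives the 0.73, 13 of these 21 targets and 6 of the 13 leucocyte targets were above background. The follicle somatic list (7 targets) lay at 0.12 to 0.99 at 3 ppb and at -0.38 to 0.34 at 0 ppb, and the blood list (6 targets) at -0.19 to 2.20 at 3 ppb and at -0.57 to 0.14 at 0 ppb. The part of these cells in the values of the immune members was not tested.

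The constitutive members had a median closer to 0 than the immune members at 3 ppb (0.09 against 0.29). The immune members also varied more among 0 ppb ovaries (median SD 0.470 against 0.147), so larger differences need no effect of dose. Fitted differences ran from -0.29 to 0.27 over the 42 constitutive members, chaperones and other activators among them, with 36 above and 6 below 0. The immune members psmb11b (0.14) and psmb12 (0.16) lay within that range. psmb5 was at 0.18 ± 0.14, psmb6 at 0.04 ± 0.15 and psmb7 at 0.01 ± 0.15. The highest and lowest belonged to the cap and ring: psmd2, a scaffold of the cap, was at 0.27, psma6l at 0.27, and psmc3, an ATPase, at -0.29. Replicates split, with constitutive medians of -0.07, 0.28, -0.10, -0.04 and 0.37 in the pairs of replicates 2 to 6, and all targets moved in part the same way (-0.03, 0.11, 0.05, -0.11 and 0.29).

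At 30 ppb, too, no proteasome gene passed the test (0 of 51, limma, Benjamini-Hochberg), as for 0% of all targets. At an unadjusted p below 0.05, 0 members passed with 1.5-fold (3.53% of all targets) and 2 without it (5.18%), and the unadjusted rule of the methods passed 0 (0.077%). The differences were above 0 for 47 members and below 0 for 4, where 63.3% of all targets were above 0. The members' median was 0.19 against 0.09 over all targets. This gap depended on the processing, with medians of 0.158 against 0.151 under normexp correction and 0.115 against 0.040 under quantile normalization. 11 members, all of them constitutive, were higher in 5 of 5 pairs, which is 21.6% of the 51, where 6.54% of all targets were: psma2a, psma2b, psma6a, psma8, psmb5, psmc1a, psmd1, psmd4b, psmd11a, psmd12 and psmd13. In 5 of 5 pairs 0 members were lower, where 1.98% of all targets were. The constitutive median was 0.38 in the pair of replicate 3 and between 0.02 and 0.19 in the other 4 pairs. Differences of this size stayed under the 1.5-fold threshold for all 42 constitutive members.

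The smallest p at 30 ppb belonged to psme2, psmb5 and psmd12. psme2, a PA28 subunit, read 0.31, 0.41, 0.07, 0.57 and 0.42 at 30 ppb, against -0.57, -0.34, 0.15, 0.48 and -0.27 at 0 ppb. Of the 5 pairs 4 were higher, replicate 4 was lower, and the groups overlapped. The fitted difference was 0.47 ± 0.18 (SE, limma, adjusted p = 0.940). psmb5, the chymotrypsin-like subunit, read 3.27, 3.59, 3.14, 2.97 and 3.08 at 30 ppb, against 3.04, 2.90, 2.84, 2.83 and 2.91 at 0 ppb. Its 5 pairs were all higher by 0.14 to 0.69 (0.31 ± 0.14, limma, adjusted p = 0.943), with replicate 5 at 30 ppb still inside the 0 ppb range. psmd12, a cap subunit, was at 0.35 ± 0.16 (adjusted p = 0.943) and at 0.21 without replicate 3, whose 30 ppb array read 4.19 where the other 4 read 3.03 to 3.34. psma2a was the single member whose 5 levels at 30 ppb (4.76 to 5.14) did not overlap those at 0 ppb (4.53 to 4.72), where 0.570% of all targets did not overlap. Its difference was 0.27 ± 0.15 (adjusted p = 0.943).

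Immune members were scattered at 30 ppb, with a median of 0.23 and a range of -0.11 (psmb10) to 0.57 (psmb8a). Their median was 0.20, 0.66, -0.08, 0.59 and 0.14 in the pairs of replicates 2 to 6. For the 7 immune and related beta genes alone it was -0.20, 0.51, 0.08, 0.59 and 0.08. In replicate 4 psmb8a was at -1.22, psmb12 at -1.80, psmb13a at -1.46 and psme1 at -0.88, while in replicate 3 the same genes were at 1.33, 1.59, 1.70 and 0.66. psmb9a and psmb10 were instead higher in replicate 4, at 0.87 and 0.49. On the 30 ppb arrays of replicates 2 to 6 the leucocyte list lay at 0.90, 0.45, -0.67, 1.07 and 0.26 from the median 0 ppb array. The antigen presentation list lay at 0.25, 0.93, -0.64, 0.54 and 0.02. The part of leucocyte RNA in these values was not tested.

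Between the higher doses no member differed by the test (30 ppb minus 3 ppb, limma, 0 of 51 called and 0% of all targets). The members' median was 0.07 against 0.02 over all targets. It was 0.036 against 0.053 under quantile normalization and 0.088 against -0.0045 under normexp correction. At an unadjusted p below 0.05, 0 members passed with 1.5-fold (2.75% of all targets), 0 without it (4.17%) and 0 by the rule of the methods (0.0426%). In 5 of 5 pairs psma8 and psmd10 were higher (3.51% of all targets) and 0 members lower (1.19%), and for 0 members the groups stood clear of each other (0.213%). Both doses were set against the same 0 ppb arrays. Companions of the proteasome were a list of 28 measured genes for its assembly factors, ubiquitin receptors, deubiquitinases, unfolding partners and transcription factors. They had 0 genes called at either dose, with medians of 0.05 at 3 ppb and 0.11 at 30 ppb. Over all targets 0% were called, and the medians were 0.07 at 3 ppb and 0.09 at 30 ppb.

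**Figure D2:**
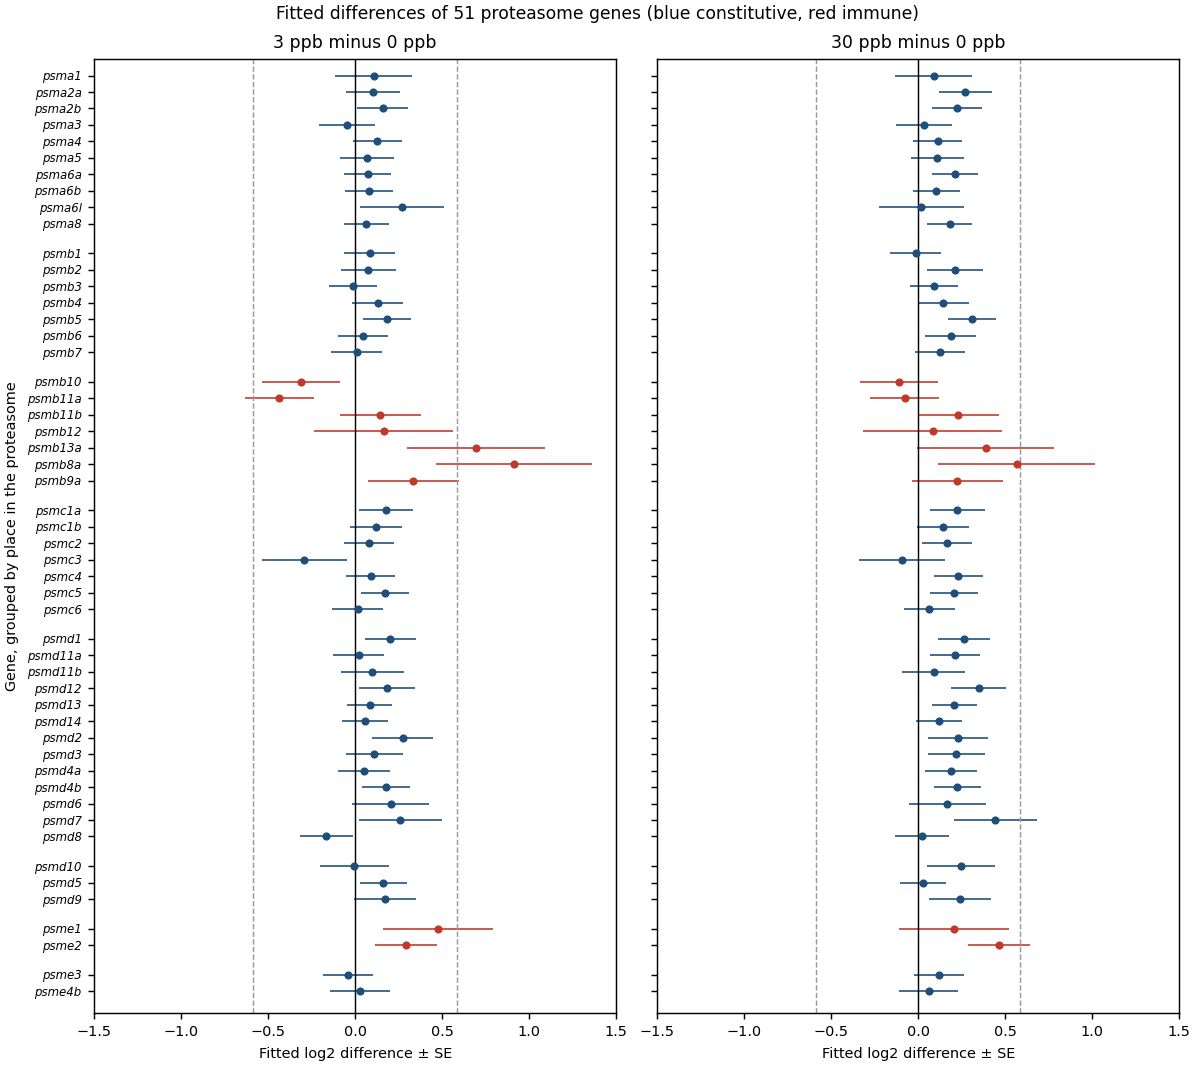
Fitted log2 difference from 0 ppb with its SE for 51 proteasome genes, at 3 ppb (left) and 30 ppb (right), 5 replicate pairs each, blue constitutive and red immune or related, ordered by place in the proteasome. Dashed lines mark 1.5-fold; no gene passed the adjusted test, and only psmb8a and psmb13a at 3 ppb lie beyond a dashed line.

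At 0.3 ppb the test on all 5 replicates called none of the members (limma with the block, 0 of 51 and 0% of 72756 targets). At an unadjusted p below 0.05 with 1.5-fold, 3 members passed, all lower, where 26.4% of all targets did: psmd10 at -1.90 ± 0.68, psme3 at -1.66 ± 0.62 and psmd14 at -0.82 ± 0.33 (SE, limma, adjusted p = 0.190 each). The members' median was -0.36, against 0.28 over all targets. In 5 of 5 pairs 3 members were lower (psmb3, psmc2 and psmd14, where 5.55% of all targets were) and 0 higher (7.34%), though the means of psmb3 and psmc2 on replicates 3, 5 and 6 turned to 0.02 and 0.28 under quantile normalization. For 0 members the groups stood clear of each other, as 1.4% of all targets did. When all 4 treatments shared 1 fit, psmd10, psme3, psmd14 and psmd8 were called as lower (adjusted p = 0.0379, 0.0380, 0.0380 and 0.0439), among 27.8% of all targets. The unadjusted rule of the methods passed psmd10, psme3 and psmd14, where 15.5% of all targets passed.

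These values rest on the 3 arrays that stand apart. With them left out, an alternative chosen after the data were seen, the members' median at 0.3 ppb was 0.11, 0 members and 0 of 72213 targets were called, and 0 members passed the unadjusted rule with the fold, as 5.64% of all targets did. psmd10 was then at 0.09, psme3 at 0.11 and psmd14 at -0.19. In the single pairs, constitutive members had a median of 0.15 in replicate 2 and 0.03 in replicate 4, against -1.02, -0.59 and -0.47 in replicates 3, 5 and 6. The rest of the account of 0.3 ppb describes those 3 arrays against the 0 ppb arrays of the same slides, with no test.

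**Figure D3:**
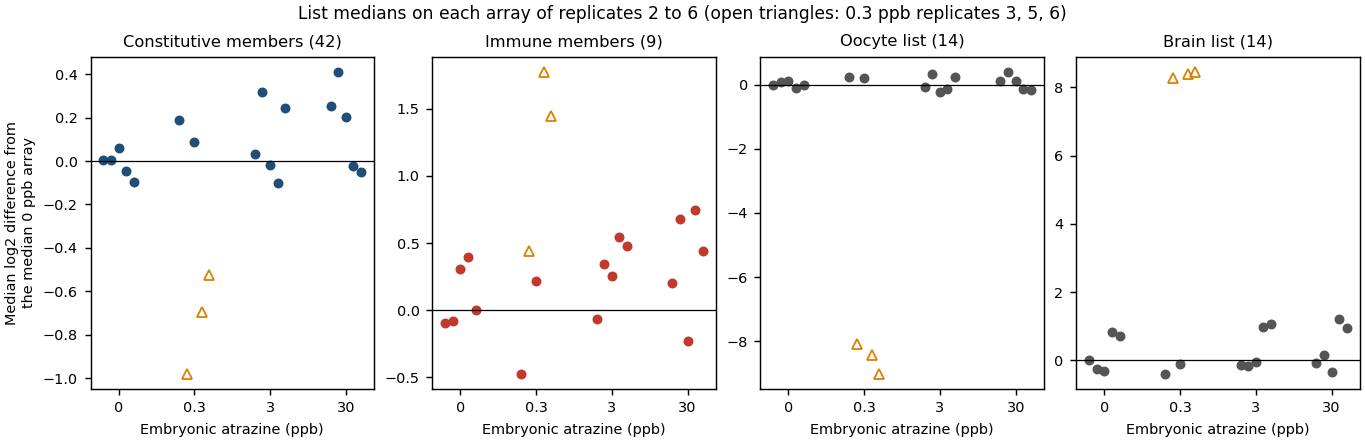
Median log2 difference of 4 gene lists from the median 0 ppb array, for each array of replicates 2 to 6 (x axis, ppb atrazine). The open triangles, 0.3 ppb replicates 3, 5 and 6, lie at -0.98 to -0.53 for the constitutive members and at 0.44 to 1.77 for the immune members, while their oocyte list lies at -9.01 to -8.07 and their brain list at 8.26 to 8.44. Set against the 0 ppb arrays of the same slides, the immune medians were smaller, at 0.44, 0.62 and 0.02 in replicates 3, 5 and 6.

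On the 3 arrays that stand apart most constitutive proteasome genes were lower than in the partner ovaries, and the immune genes were mixed. A gene was counted as lower or higher where all 3 pairs had 1 sign and the mean was at least 1.5-fold. By this rule 27 of 51 members were lower and 4 higher, where 24.6% of all 70909 targets were lower and 43.9% higher. Among the constitutive members 26 of 42 were lower and 0 higher, and among the 9 immune members 1 was lower and 4 were higher (44.4%), a share close to the 43.9% of all targets. The constitutive median was -0.67, that of the immune members 0.06 and that of all targets 0.48. Against bright targets alone the gap of the constitutive members was small: among the 20390 targets whose probes were well above background on every array, the median was -0.60 with 48.7% lower, and the constitutive median there was -0.74 with 29 of 42 lower. Marker genes of other cell types move with these values, as given above for the oocyte and brain lists, and the part of cell make-up in them was not tested.

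How low the constitutive genes lay, and whether they were lower more often than all targets, depended on the scaling. Quantile normalization put the median of all targets at -0.11 and the constitutive median at -0.26. There 13 of 42 constitutive members were lower (31.0%) and 1 higher (psmc1b), where 35.4% of all targets were lower and 34.4% higher. The constitutive share of lower genes was thus no greater than that of all targets. With normexp correction the median of all targets was 0.78 and the constitutive median -0.76. There 26 of 42 were lower and 0 higher, where 17.2% of all targets were lower and 56.6% higher. The rule held under all 3 ways for 13 constitutive members as lower and for 3 immune members as higher, where 16% and 33.2% of all targets held it, so that 3 of 9 immune members is near the share of all targets. Signs differed between the 3 ways for 11 members: psmb2, psmb3, psmb5, psmb11a, psmb11b, psmc2, psmc5, psmd2, psmd4b, psmd6 and psmd7. No direction is read from the values of these 11 genes.

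**Figure D4:**
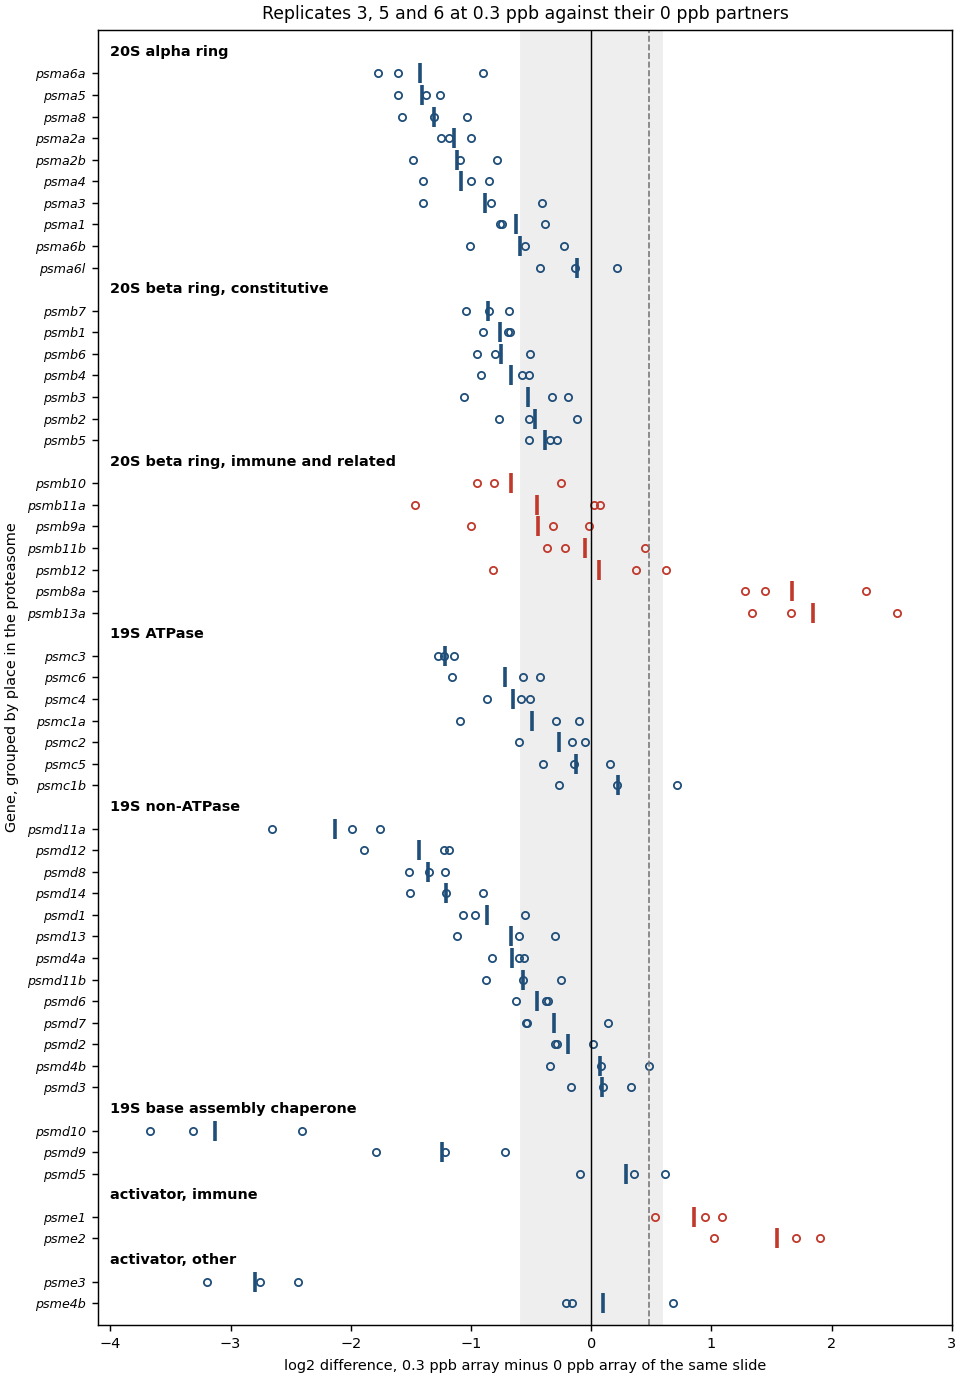
Log2 difference of the 0.3 ppb array from the 0 ppb array of the same slide for 51 proteasome genes (down the page) in replicates 3, 5 and 6 (circles) with their mean (bar), blue constitutive and red immune or related. Grey marks less than 1.5-fold and the dashed line the median of all targets, 0.48; 26 blue genes lie to the left of the grey band in the mean, and 4 red genes to the right.

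**Figure D5:**
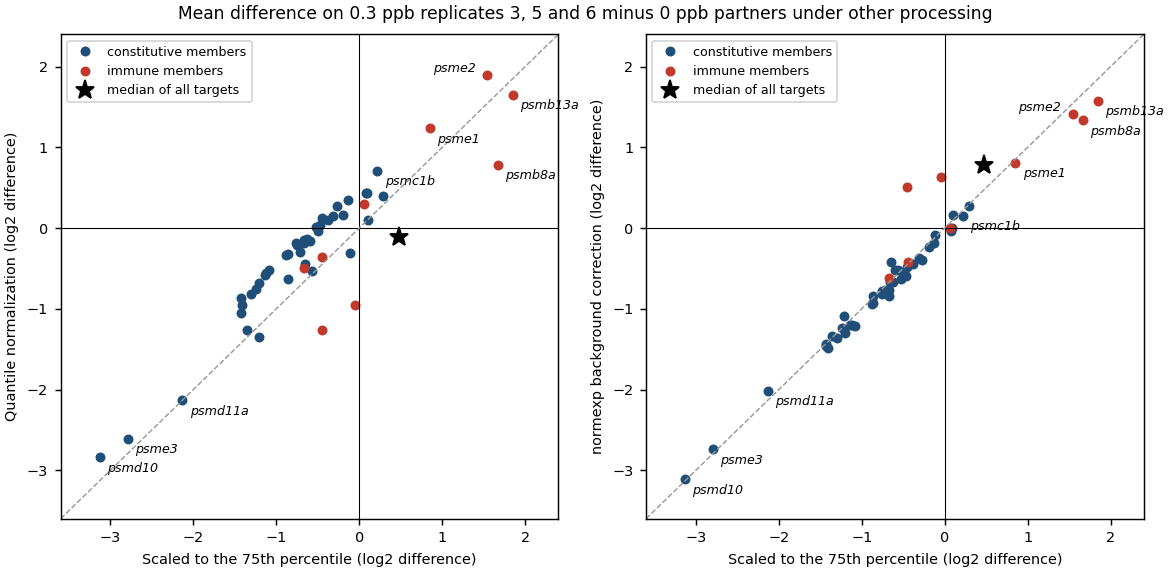
Mean log2 difference of the 3 pairs for 51 proteasome genes (dots) when arrays are scaled to the 75th percentile (x axis) against quantile normalization (left, y axis) or normexp correction (right, y axis); the star is the median of all targets and the dashed line marks equal values. psmd10, psme3 and psmd11a stay below -2 and psme1, psme2 and psmb13a above 0.8 in both panels, while most ring genes lie nearer 0 under quantile normalization.

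The lowest were a chaperone and an activator. psmd10, known in mammals as gankyrin, a chaperone that helps to build the ATPase base of the cap, read 0.35, 0.69 and 0.78 on the 0.3 ppb arrays of replicates 3, 5 and 6, against 4.01, 4.00 and 3.19 on their 0 ppb partners. No array of the 3 reached any 0 ppb array. The mean difference was -3.13 ± 0.65 (SD, n = 3 pairs), an 8.75-fold lower intensity, and -2.84 and -3.11 under quantile normalization and normexp. psme3, the nuclear activator PA28 gamma, read 0.24, 0.48 and 0.63, against 3.43, 3.23 and 3.07 in the partners. Its difference was -2.79 ± 0.38, 6.93-fold, with -2.61 and -2.74 under the other ways. In replicates 2 and 4 psmd10 differed by 0.31 and -0.41 and psme3 by 0.18 and -0.10.

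The other chaperones of the cap base were unlike psmd10 and unlike each other. psmd9 was at -1.24 ± 0.54 (SD, n = 3 pairs) and stayed lower under all 3 ways (-0.75 and -1.24). psmd5 was at 0.29 ± 0.36, with pairs of -0.10, 0.35 and 0.62. psme4b, a relative of the activator PA200, was at 0.10 ± 0.50, and its 4 probes ranged from -1.08 to 1.84.

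In the lid and scaffold of the cap, 7 of 13 genes were lower, where 24.6% of all targets were. Under quantile normalization it was 5 of 13 (38.5%), near the 35.4% of all targets there. Among targets bright on every array it was 9 of 13 (69.2%), where 48.7% of such targets were lower. psmd11a, a lid subunit, read -0.06, 0.28 and 0.37, against 2.59, 2.27 and 2.13 on the 0 ppb partners. Its difference of -2.13 ± 0.47 (SD, n = 3 pairs), 4.39-fold, was the same to 2 decimals under quantile normalization and -2.02 under normexp. psmd12, another lid subunit, was at -1.43 ± 0.40, and psmd14, the deubiquitinase that cuts the chain from the substrate, at -1.20 ± 0.31. psmd14 read 3.69, 3.73 and 4.02 on the 3 arrays, below all 5 0 ppb arrays (4.91 to 5.33). psmd8 was at -1.36 ± 0.15, but its 2 probes gave -2.46 and -0.26. psmd3 lay at 0.09 ± 0.25, and psmd1, a scaffold, at -0.86 ± 0.27.

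Of the 7 ATPase genes, which unfold the substrate, 3 were lower, where 24.6% of all targets were. With quantile normalization 1 was lower and 1 higher, where 35.4% and 34.4% of all targets were. Of the targets bright on every array 48.7% were lower, with a median of -0.60. The ATPase genes, at 42.9% and -0.49 under that filter, lay no lower than such targets. psmc3 was at -1.21 ± 0.07, psmc6 at -0.72 ± 0.39 and psmc4 at -0.65 ± 0.19 (SD, n = 3 pairs). Under quantile normalization psmc3 alone of these remained past 1.5-fold in 3 of 3 pairs (-1.34). The highest ATPase gene was psmc1b at 0.22 ± 0.49, which was the 1 constitutive member counted as higher under quantile normalization (0.71).

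The alpha ring was the part of the barrel that lay lowest, with 9 of 10 genes lower (24.6% of all targets) and a median of -1.10. With probes bright on every array, 9 of 10 were lower and the median was -1.13. Of all such targets 48.7% were lower, with a median of -0.60. Its lowest were psma6a at -1.43 ± 0.47, psma5 at -1.41 ± 0.18 and psma8 at -1.30 ± 0.27 (SD, n = 3 pairs). psma6a read 2.55, 2.52 and 3.11, against 4.33, 4.13 and 4.01 in the partner ovaries, with no overlap. psma8, in mammals an alpha subunit of the testis, carries the name psma7 among its synonyms in fish. Under quantile normalization 4 of the 10 were lower, psma2a, psma5, psma6a and psma8, with a ring median of -0.54, and this count is near the 35.4% of all targets that were lower there. The remaining gene, psma6l, was at -0.12 ± 0.32.

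The constitutive beta ring lay less low, with 4 of 7 genes lower (24.6% of all targets) and a median of -0.67. With probes bright on every array, 5 of 7 were lower, where 48.7% of such targets were. The ring's median there, -0.65, was near the -0.60 of all such targets. psmb7 read 3.19, 3.26 and 3.47, against 4.23, 4.11 and 4.16 in the partners, and psmb6 read 3.74, 3.93 and 4.18, against 4.68, 4.73 and 4.70. Both sets were clear of all 0 ppb arrays. The differences were -0.86 ± 0.18 for psmb7 and -0.75 ± 0.22 for psmb6 (SD, n = 3 pairs). Under quantile normalization no beta gene kept the rule and the ring's median was -0.14. psmb5 read 2.39, 2.54 and 2.56, against 2.90, 2.83 and 2.91, a difference of -0.38 ± 0.12 whose sign turned to 0.10 under quantile normalization.

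Among the immune members 4 of 9 were higher by the rule, a share near that of all targets (43.9%), and their values are given as a description. psmb8a read -5.02, -3.26 and -4.57 on the 3 arrays, against -6.30, -5.54 and -6.02 in the partner ovaries, and 2 of its 4 probes passed the filter. All 3 levels were above the 5 at 0 ppb. The difference was 1.67 ± 0.54 (SD, n = 3 pairs), 3.18-fold, with 0.78 under quantile normalization, where the rule was not met. Its mean level at 0 ppb, -6.06, was the lowest of the 51 members, so the scaling weighs on this value. The 75th percentile used for scaling was 417, 1076 and 1022 on the 3 arrays, against 1501, 2242 and 1856 on the partners. psmb13a read -1.28, -0.46 and -1.32, against -2.62, -3.00 and -2.98. Its difference was 1.85 ± 0.62 and the rule held under all 3 ways (1.65 and 1.58).

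The PA28 genes that make the interferon-inducible activator were higher. psme2 read 1.56, 1.51 and 1.44 on the 3 arrays, against -0.34, 0.48 and -0.27 in the partners, a difference of 1.54 ± 0.46 (SD, n = 3 pairs) or 2.91-fold on 1 probe. psme1 read 1.44, 1.74 and 1.42, against 0.91, 0.66 and 0.48, a difference of 0.85 ± 0.29 or 1.81-fold. Both kept the rule under all 3 ways, with 1.89 and 1.41 for psme2 and 1.24 and 0.81 for psme1. The third PA28 gene, psme3, lay on the other side. The difference of psme1 exceeded that of psme3 by 3.65 ± 0.24 and that of psme2 exceeded it by 4.34 ± 0.68 (SD, n = 3 pairs), and by 3.85 and more under quantile normalization.

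The other immune genes were not higher by the rule. psmb10 was at -0.67 ± 0.37 and was counted as lower, though with -0.50 under quantile normalization it missed 1.5-fold. psmb9a was at -0.44 ± 0.50 and psmb12 at 0.06 ± 0.77 (SD, n = 3 pairs), with pairs of 0.37, 0.62 and -0.82. psmb11a and psmb11b were well above background on 2 of the 3 arrays, and their signs depended on the scaling. Each standard cutting subunit could be set against its immune counterpart on the same arrays. The difference of psmb5 lay below that of psmb8a by -2.05 ± 0.45, that of psmb6 relative to psmb9a was -0.31 ± 0.69, and that of psmb7 relative to psmb10 was -0.19 ± 0.54. For the psmb5 and psmb8a pair all 3 replicates were on 1 side, and the gap was -0.68 under quantile normalization and -1.78 under normexp. For the other counterparts replicates fell on both sides, and quantile normalization turned the sign (0.15 and 0.17). In replicates 2 and 4 the psmb5 and psmb8a gap was 0.19 and -0.03.

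Copies of a duplicated subunit gene differed on the 3 arrays for some pairs and not for others. The difference of psmd11a from its partners lay below that of psmd11b by 1.78, 1.42 and 1.51 log2 units in replicates 3, 5 and 6. This gap, a difference of the differences, had a mean of -1.57 ± 0.18 (SD, n = 3). The 5 probes of psmd11b, however, ran from -1.58 to 0.86. For psma6a the gap was -0.83 ± 0.21 to psma6b and -1.31 ± 0.63 to psma6l (-0.56 under quantile normalization). It was -0.72 ± 0.18 for psmc1a to psmc1b and -0.74 ± 0.31 for psmd4a to psmd4b. The a and b copies of psma2 had like values, at -1.14 ± 0.13 for psma2a and -1.12 ± 0.35 for psma2b (gap -0.02 ± 0.28). In replicates 2 and 4 the gaps of all these pairs lay between -0.29 and 0.38. Probes of psmc1b and of psmd4b differed in sign among themselves, and psma2b, psma6b and psma6l rest on 1 probe each. Copies of near-identical sequence can share signal, which was not tested here.

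Companions of the proteasome were more often lower than higher on the same 3 arrays. Of 28 genes, 15 were lower and 5 higher, where 24.6% of all targets were lower and 43.9% higher. Under all 3 ways it was 10 and 5, where it was 16% and 33.2% of all targets. Of the 24 companions bright on every array, 14 were lower (58.3%) and 4 higher (16.7%). Of all such targets 48.7% were lower and 25.8% higher. nploc4, a cofactor of the unfolding ATPase vcp, was at -4.02, with pairs of -4.08, -3.95 and -4.02, and vcp itself at -1.99, while ufd1l, the other cofactor, was at 0.69. The deubiquitinase usp14 was at -2.20 and the cap's ubiquitin receptor adrm1 at -1.95. Of the core assembly chaperones psmg2 was at -1.48 and psmg3 at 0.19. Higher were the stress-response factor nfe2l2a at 3.49 and nfe2l1b, a factor known in mammals to drive proteasome genes, at 1.66. Its copy nfe2l1a was at -2.37 and lower by the rule, with -3.15 under quantile normalization and -0.14 under normexp. It was above background on 1 of the 3 arrays.

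Of 21 antigen presentation and interferon targets, 12 were higher on the 3 arrays and 4 lower, where 43.9% of all targets were higher and 24.6% lower. Under all 3 ways it was 11 and 2, where it was 33.2% and 16% of all targets. The 2 targets of b2m, the light chain of class I molecules, were at 3.49 and 3.53. The interferon signal factors stat1a and irf9 were at 2.61 and 3.16. irf1b was at 3.03 and its copy irf1a at -4.05. Also lower by the rule were irf3 at -1.67, irf7 at -1.31 and ifit8 at -1.27. However, ifit8 was above background on 2 of the 3 arrays, and its sign turned to 0.05 under normexp. tapbp.1 and tapbp.2 lay at -0.56 and -0.47, short of 1.5-fold. On the same arrays the leucocyte list lay 1.75 to 2.44 above the median 0 ppb array and the blood list 3.85 to 5.00 above it. The part of such cells in the values of psmb8a, psmb13a, psme1 and psme2 was not tested.

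Apart from the subunits, psmc3ip had the largest difference of all 53 genes. It encodes a partner of the meiotic recombinases in mammals and no part of the proteasome. It read -2.58, -3.44 and -3.81 on the 3 arrays, against 3.51, 3.51 and 3.45 in the partner ovaries, a difference of -6.77 ± 0.61 (SD, n = 3 pairs). It was at -0.02 ± 0.14 at 3 ppb and 0.02 ± 0.14 at 30 ppb (limma, SE). psme3ip1, named for its binding to psme3, was at 0.42 ± 0.23.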

How the data were processed

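Members and gene lists were chosen with earlier results of these data known. Sequences and genome positions are not analysed here. The authors read each one-color array with Agilent Feature Extraction 11.5 and deposited spot intensity after background subtraction; GeneSpring normalization was made later and is not in these values. Per the file headers, intensities of spot and background pixels (medians) are also given; these fed normexp, with offset 50.

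From the deposited intensity, log2 values (floor 1) minus the 75th percentile of unmarked non-control spots were taken and outlier spots dropped. Probes had to stand well above background on 5 or more of 20 arrays. Spots were averaged to probes and probes to targets, with 2 values per group needed. limma 3.58.1 (R 4.3.3) fitted 0, 3 and 30 ppb (15 arrays), and 0 and 0.3 ppb (10 arrays), with the replicate number as a block. Calls needed a Benjamini-Hochberg adjusted p under 0.05 and 1.5-fold. Python 3.11.15, pandas 2.3.3, numpy 2.4.6 and matplotlib 3.10.9 were used for counts and plots. The number of arrays limits precision.

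Replicate numbers are start days per the methods, each with a slide. Deviations of same-numbered samples (64316 targets) correlated by over 0.1 in 14 of 15 pairs (median 0.413, range 0.07 to 0.73). Samples of different numbers did so in 23 of 60 pairs (median -0.317, range -0.56 to 0.69). The 3 scan sessions held 2 slides each. Named genes were the cutting subunits, the immune and activator genes, psma8, called members or the 3 of smallest p per dose, the 5 highest and 5 lowest on 0.3 ppb replicates 3, 5 and 6, the 2 most and 2 least variable at 0 ppb and duplicated copies; other members named were chosen after their values were seen. Associated and antigen presentation lists matched 28 of 34 and 20 of 26 genes. Marker lists for muscle, liver, follicle, testis, blood, leucocyte, oocyte and brain cells were also used: on the 3 arrays apart the muscle list lay at 0.75 to 2.91, liver at -4.80 to 5.96, follicle somatic at -1.68 to -0.53 and testis at -1.90 to -0.16. On simulated data of 65440 targets with the 3 ppb design, 16% of log2 changes of 1 and 66% of 2 were recovered, with 5 unchanged targets called. For 0.3 ppb (70370 targets) 0% were recovered at either size.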

Additional observations from a re-analysis of the deposited data

Results flagged for a closer look

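Of 124 combinations of a named gene and a dose, each with 5 arrays, 4 held an array far from the other 4 by Dixon's criterion at 95%, where chance gives about 1 in 20. The 3 ppb array of replicate 3 read 4.42 for psma8, where the others read 3.81 to 3.97. The 30 ppb array of the same replicate read 4.19 for psmd12, against 3.03 to 3.34 on the others. The 0 ppb array of replicate 6 read 3.19 for psmd10, where the others read 3.98 to 4.24, and 2.36 for psmc1b, where the others read 2.57 to 2.65. That array is a partner in the differences at 0.3 ppb, and without replicate 6 the mean difference of psmd10 on the 2 other pairs was -3.49. For psmc1b it was -0.03 without replicate 6, against 0.22 with it, so its sign rests on that pair.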

How the results depend on the processing

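Each fit was repeated with quantile normalization, normexp, other filters on dim probes, the median over probes, only the 2 groups compared, all 4 groups in 1 fit, replicate 1 included, the methods' own test, and each replicate left out. For 3 and 30 ppb 0 members were called under each of these, counts that the low recovery on simulated data keeps from showing stability. At 0.3 ppb all 4 groups in 1 fit called 4 members and the methods' test, unadjusted, 3. Without the replicate block 0 members were called in each comparison, which with so few calls says nothing about the pairing, and 1 target of all was called at 0.3 ppb, against 0 with it. Without any 1 replicate the count stayed 0, and the members' median lay at -0.45 to -0.23 (0.3 ppb), 0.04 to 0.15 (3 ppb), 0.11 to 0.21 (30 ppb) and 0.03 to 0.15 (30 against 3 ppb).

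Signs turned for a few genes, each from a value that had not passed the test. With the 0.3 ppb arrays of replicates 3, 5 and 6 left out, chosen after the data were seen, the difference at 0.3 ppb was 0.13 for psmb5, 0.0060 for psmb10, -0.43 for psmb13a, 0.094 for psmd10, -0.17 for psme2 and 0.11 for psme3, and the members' median 0.11. At 0.3 ppb psmb5 was 0.063 under quantile normalization, and with replicate 1 included psmb5 was 0.034 and psmb9a 0.18. At 3 ppb psmb11a was 0.075 under normexp, and psme3 ranged from -0.14 to 0.052 without 1 replicate. At 30 ppb psmb10 ranged from -0.26 to 0.025 without 1 replicate and was 0.21 with replicate 1 included, and psme1 was then -0.085.

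On the 0.3 ppb arrays of replicates 3, 5 and 6, quantile normalization gave 13 constitutive members lower, 1 higher and a median of -0.26, and 2 immune members lower. Over all members it gave 15 lower (29.4%) and a median of -0.22, where 35.4% of all targets were lower with a median of -0.11. The median over probes gave 1 constitutive member higher (2.4%), where 43.8% of all targets were higher. The immune median was 0.63 under normexp and 0.46 with the strict filter. That filter also put the median of all targets at -0.60, beside -0.74 for the constitutive members. Without 1 of the 3 pairs, 20 to 30 members were lower, 19 to 30 constitutive ones (medians -0.79 to -0.56) and 0 to 2 immune ones (medians 0.037 to 0.50). Of all targets 25.8% to 27.7% were then lower (medians 0.36 to 0.57). The cause of these shifts was not tested. With 5 arrays per group and, for psmb11a and psmb11b, signal near background, small changes were not detectable. The same limit holds for psmb8a, whose mean level at 0 ppb (-6.06) was below theirs (-4.51 and -5.83).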
